A study of Drosophila melanogaster with 3 samples.

Results

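The Mediator complex, TFIID, the other general initiation factors and RNA polymerase II were examined as targets of the tagged transcription factor Fru in Drosophila melanogaster larvae. The genes were taken by symbol from the Ensembl BDGP6 annotation, as every protein-coding gene named MED, Taf or Polr2 with its number or letter, every gene starting with TfII, and Tbp. This gave 63 of 13968 protein-coding genes, of which 25 encode Mediator subunits, 16 belong to TFIID, 9 are other initiation factors and 13 are RNA polymerase II genes. These groups follow the symbols alone. The other initiation factors thus include TfIIS, which acts on a stalled polymerase, and TFIID includes the variant gene Taf12L. The chromatin came from whole wandering larvae of the third larval instar, males and females pooled, and 3 biological replicates form the 1 group. All flies were of the strain fru-MiMIC-GFP, in which an eGFP exon sits within an intron of fru, so that the native gene makes a fusion protein that an anti-GFP antibody precipitates. The labels do not say which Fru isoforms carry the tag, no untagged or control sample was analysed here, and a whole larva mixes all tissues, so that a region does not tell in which cells the protein was bound. The labels name the replicates as biological without saying how the larvae were collected. The spread over them may therefore be partly technical.

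RNA polymerase II reads most protein-coding genes, but it finds a promoter only with the help of general factors: TFIID, which carries the TATA-binding protein Tbp and its associated Tafs, recognises the core promoter, and TFIIA, TFIIB, TFIIE, TFIIF and TFIIH complete the initiation complex. Mediator passes signals from DNA-bound activators to the polymerase, with a tail that contacts activators, a head and a middle that contact the polymerase, and a detachable kinase module. Fru is a family of BTB zinc-finger proteins best known for the control of sexual behaviour. Many fly genes are arranged head to head, with a neighbour on the opposite strand starting a short way upstream, so that the pair shares one promoter region.

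A gene was counted as having a promoter peak when a summit of the authors' thresholded list of 8996 regions on dm6 lay within 500 bp of one of its annotated transcription start sites (TSSs). Each region carries a signal value, which is the authors' own score with no fixed range, and its place is its order by that value in the list, with place 1 the strongest. The thresholded list is the first 8996 places of a pooled list of 30000 regions, so that a place means the same in both. Its signal values have a median of 201 and a lowest value of 105. The lists hold no read counts, so the depth behind each value is unknown.

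The largest share with a promoter peak among the 4 complexes was that of Mediator. A peak lay at 12 of the 25 Mediator genes, a share of 48.0% with a Wilson 95% interval of 30.0 to 66.5%, against 24.6% of all protein-coding genes (3436 of 13968). The Mediator genes with a peak were MED4, MED6, MED7, MED8, MED9, MED16, MED17, MED23, MED25, MED27, MED30 and MED31. RNA polymerase II followed with 5 of 13 genes (38.5%, interval 17.7 to 64.5%), namely Polr2A, Polr2B, Polr2F, Polr2H and Polr2J. TFIID had 3 of 16 (18.8%, interval 6.59 to 43.0%), which were Taf2, Taf4 and Taf13, and among the other initiation factors TfIIA-S alone had one, 1 of 9 (11.1%, interval 1.99 to 43.5%). Together 21 of the 63 genes had a promoter peak, a share of 33.3% with an interval of 22.9 to 45.6%. That interval includes the 24.6% of all genes, as do those of TFIID, the other factors and RNA polymerase II, while that of Mediator lies above it. The intervals of the 4 complexes overlap one another, and no test between complexes was run. The lead of Mediator depends on how peaks are given to genes: counted only for the gene of the nearest TSS, 5 of 25 Mediator genes had a peak, a share close to the 19.4% of all protein-coding genes, and RNA polymerase II then had the higher share, 3 of 13 (23.1%).

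**Figure D1:**
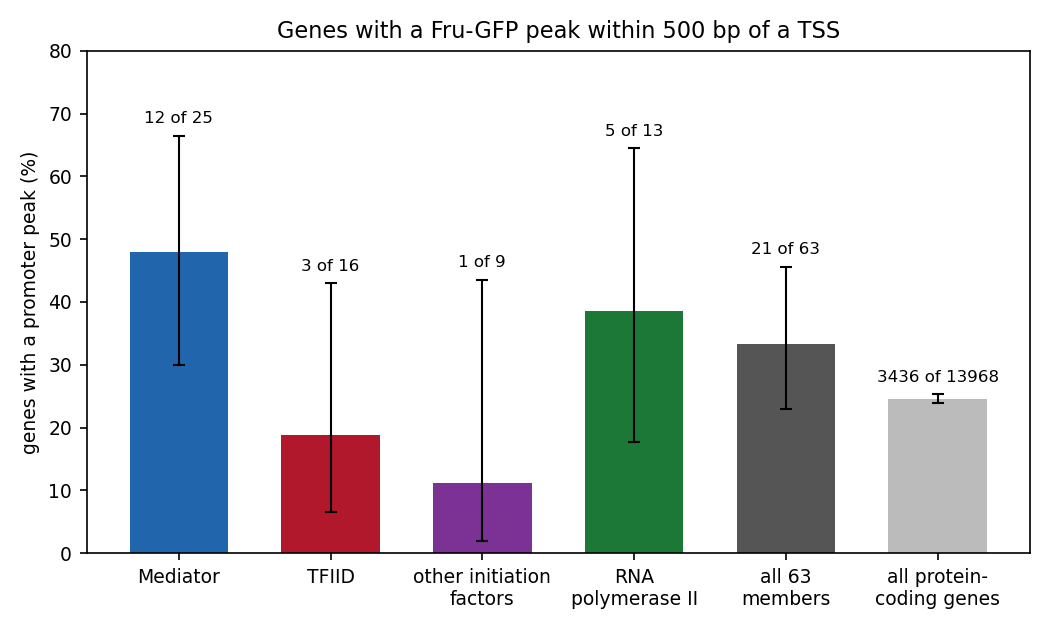
Percentage of genes with a thresholded Fru-GFP summit within 500 bp of a TSS, by complex, for all 63 members and for all protein-coding genes; bars are shares with Wilson 95% intervals and the counts stand above them. The Mediator bar, 12 of 25, is the highest, and its interval is the one that lies above the 24.6% of all protein-coding genes.

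Within Mediator the peaks were not gathered in one module. They lay at 3 of 7 head genes, 4 of 8 middle genes, 3 of 5 tail genes and 2 of the 5 genes placed in no module here (MED14, MED26, MED27, MED28 and MED30). Those 2 were the strongest of all. MED30 had the peak at place 287 (signal value 1106), at chr3L:654043-654445 with its summit -163 bp from the TSS, where negative means upstream. MED27 followed at place 642 (signal value 744), at chr3R:5654806-5655174, with its summit at -150 bp. In replicates 1, 2 and 3, MED30 held places 205, 296 and 425, and MED27 held places 534, 671 and 829. Both were thus strong in all 3 replicates. The strongest TFIID peak, at Taf4, came close behind at place 667 (signal value 728), in an intron of Taf4 at chr3L:16113462-16113813. Its summit lay -146 bp from an internal TSS of that gene.

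The DNA under most of the summits at these genes was rich in A and T. The sequences shown are the 61 bases centred on the summits of the 3 strongest peaks (MED30, MED27 and Taf4), of the RNA polymerase II genes Polr2B and Polr2J, and of TfIIA-S, which differs in composition from the others shown. They are from the Release 6 genome (dm6), in the direction of the named gene, with the summit base in capitals; only summits outside annotated exons are shown.
MED30 (chr3L:654222-654282, minus strand): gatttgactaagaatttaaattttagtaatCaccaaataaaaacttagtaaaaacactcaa
MED27 (chr3R:5654959-5655019, plus strand): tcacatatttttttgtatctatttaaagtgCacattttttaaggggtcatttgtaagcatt
Taf4 (chr3L:16113614-16113674, plus strand): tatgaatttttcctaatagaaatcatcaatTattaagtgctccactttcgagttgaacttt
Polr2B (chr3R:14125678-14125738, plus strand): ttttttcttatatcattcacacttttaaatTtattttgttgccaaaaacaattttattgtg
Polr2J (chr2L:17410484-17410544, minus strand): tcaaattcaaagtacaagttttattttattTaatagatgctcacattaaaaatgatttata
TfIIA-S (chr3R:23891097-23891157, minus strand): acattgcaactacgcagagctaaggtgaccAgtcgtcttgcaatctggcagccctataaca
G and C made up 21.3% of the window at MED30, 26.2% at MED27, 27.9% at Taf4, 19.7% at Polr2B and 18.0% at Polr2J, but 49.2% at TfIIA-S. Over the strongest summits of all 21 genes the median was 26.2%, with a range of 18.0 to 52.5%. The 2628 summits that are the strongest at some protein-coding promoter had a median of 36.1%, and all 8996 thresholded summits one of 34.4%. The highest share among the members, 52.5%, was at MED6. Of the RNA polymerase II genes with a peak that are not shown, Polr2A had 47.5%, Polr2F 41.0% and Polr2H 24.6%.

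The tail subunits of Mediator, the ones nearest to activators, had peaks at MED23, MED16 and MED25. MED23 lay at place 1677 (signal value 412), with replicate places 2097, 1000 and 2709 and the summit at -20 bp. MED16 lay at place 1779 (signal value 396) with replicate places 1709, 1636 and 2076 and the summit at -70 bp. MED25 was much weaker, at place 7507 (signal value 125), and its replicate places of 10573, 9536 and 8073 put it among the strongest 8996 regions in replicate 3 alone. Its summit, at -324 bp, was the farthest from its TSS of the 21, and thus the nearest to the limit of 500 bp from within. MED15, a tail subunit that contacts many activators in yeast, was the nearest to the limit from outside. A thresholded summit of place 2191 (signal value 343) lay 541 bp from its TSS. MED24 had no region within 500 bp in any list.

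Of the head subunits, MED17, MED6 and MED8 had peaks. MED17, the scaffold of the head, held 2 summits: the stronger at place 1901 (signal value 379) at -277 bp and the weaker at place 3161 (signal value 264) at -78 bp. Its replicate places were 2096, 2429 and 1639. MED6, which has 5 annotated TSSs, also held 2 summits, at place 2682 (signal value 299) and place 4716 (signal value 193), each within 20 bp upstream of one of its TSSs, at -17 and -3 bp. Replicate places for MED6 were 2001, 3086 and 3902. MED8 was the weakest of all 21, at place 8898 (signal value 106) close to the end of the thresholded list, and was found in replicates 1 and 3 (places 7617 and 7048) but at no place in replicate 2. The head genes without a peak were MED11, MED18, MED20 and MED22, and none of these 4 had a region within 500 bp in any list.

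Middle-module peaks lay at MED7, MED9, MED4 and MED31. MED7, a core subunit of the middle, was at place 2422 (signal value 321), with replicate places 2095, 3003 and 2559. MED9 was at place 2695 (signal value 298) and MED4, with which MED9 assembles in the middle, at place 2989 (signal value 276). Their replicate places were 3985, 1481 and 3601 for MED9, and 2886, 2499 and 3882 for MED4. MED31 lay lower, at place 4256 (signal value 211), with places 3680, 8074 and 3434. Replicate 2 therefore set it far lower than the other two did. The middle genes without a promoter peak were MED1, MED10, MED19 and MED21. The closest of these was MED19, whose region at place 9976 (signal value 93.8, summit 12 bp downstream of the TSS) fell short of the threshold. MED19 was found in every replicate, at places 10028, 12046 and 9240, each outside the strongest 8996 regions.

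The RNA polymerase II peaks included the catalytic core. Polr2B, the second largest subunit, which forms the active centre with Polr2A, was at place 1237 (signal value 505) at chr3R:14125480-14125857, with its summit at -83 bp and replicate places 1852, 1722 and 976. Polr2A, the largest subunit with the repeated C-terminal domain, was weaker at place 4508 (signal value 201). It was among the strongest regions of replicates 1 and 3 (places 3490 and 3544) but at place 10926 in replicate 2. Its summit, at -225 bp, lay nearer to a TSS of CG11699 than to that of Polr2A. Polr2H and Polr2F, subunits shared by RNA polymerases I, II and III, were at place 1273 (signal value 498; replicate places 819, 1095 and 2017) and place 1751 (signal value 400; 1500, 1331 and 2637). Polr2J, which pairs with Polr2C in the polymerase, was at place 1301 (signal value 491), with replicate places 1232, 1798 and 1409. The 5 genes had a median place of 1301, against 2552 for the 12 Mediator genes and 3299 for all protein-coding genes with a promoter peak. No peak lay at Polr2C, Polr2D, Polr2E, Polr2G, Polr2I, Polr2K, Polr2L or Polr2M, and none of these 8 genes had a region within 500 bp in the pooled list. The shared subunits thus split, with peaks at Polr2F and Polr2H and none at Polr2E, Polr2K and Polr2L.

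In TFIID the peaks were those of Taf4, Taf2 and Taf13. Taf4, a histone-fold subunit at the core of the complex, held replicate places 664, 546 and 986. Taf2, which helps to recognise the initiator element, lay at place 4465 (signal value 203), with places 7333, 6299 and 3326, and carried a further weak summit at place 8852 (signal value 106). Taf13, the histone-fold partner of Taf11, was at place 5688 (signal value 164), with places 8597, 4968 and 5304. Both were well below Taf4 in every replicate. Neither Tbp nor Taf1, the largest subunit, had a promoter peak. Tbp had a region in replicate 2 alone, at place 22109, and Taf1 had none in any list. Taf8 and Taf9 had regions in the pooled list that did not reach the threshold, at places 15608 and 18752 (signal values 56.5 and 45.2), and each was found in all 3 replicates outside their strongest 8996 regions. The replicate places were 13789, 15802 and 14622 for Taf8, and 14163, 14836 and 19214 for Taf9. Taf10 and Taf10b, the pair of Taf10 genes of the fly, start 45 bp apart on opposite strands and share their only region, at place 20491 in replicate 2. The remaining Taf genes without a peak were Taf3, Taf5, Taf6, Taf7, Taf11, Taf12 and Taf12L.

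Of the other initiation factors, TfIIA-S alone had a peak in the thresholded list, while single replicates gave up to 3 of 9. Among the strongest 8996 regions of replicates 1, 2 and 3, a region lay at 33.3%, 33.3% and 11.1% of these genes, against 25.2%, 27.3% and 24.3% of all protein-coding genes. TfIIA-S, the small subunit of TFIIA, was at place 2570 (signal value 308), at chr3R:23890898-23891357 and -67 bp from its TSS, with replicate places 1717, 1977 and 5316. It was thus weaker in replicate 3 than in the others. TfIIFalpha, a subunit of TFIIF, had a region below the threshold at place 11174 (signal value 82.8), found in replicates 1 and 2 at places 7218 and 12554. TfIIS, which helps a stalled polymerase to resume, had one at place 12387 (signal value 73.8), found in replicates 2 and 3 at places 7839 and 15073. TfIIB, TfIIFbeta and TfIIA-S-2 had no region within 500 bp in any list. TfIIEalpha had a region in replicates 1 and 2 alone, at places 22504 and 18547, and TfIIEbeta in replicate 2 alone, at place 17356.

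TfIIA-L, which encodes the partner of TfIIA-S, gave different answers in different lists. A region lay within 500 bp of a TSS of TfIIA-L at place 1884 in replicate 1 and place 3712 in replicate 2, but at no place in replicate 3 and none in the pooled list. Of the 63 genes this was the single one with a region among the strongest of at least 2 replicates and none in the pooled list, a share of 1.59%. Over all protein-coding genes 209 were in that state (1.50%). The absence of a peak at TfIIA-L in the thresholded list rests on the authors' pooled calls.

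The count over all 63 genes varied little between replicates, and those of the smaller complexes varied more. Taking the strongest 8996 regions of each replicate, a region lay within 500 bp of a TSS at 22, 22 and 21 of the 63 genes in replicates 1, 2 and 3, a mean of 34.4% ± 0.916 (SD, n = 3). All protein-coding genes had the shares given above for each replicate, so that the members' share was the higher one in each replicate. Mediator had 11, 10 and 12 such genes, RNA polymerase II 5, 4 and 5, TFIID 3, 5 and 3, and the other factors 3, 3 and 1. As shares of their genes these were 44.0%, 40.0% and 48.0% for Mediator and 38.5%, 30.8% and 38.5% for RNA polymerase II, while TFIID had 18.8%, 31.2% and 18.8%. The other factors fell to 1 gene in replicate 3 and TFIID reached 5 in replicate 2. Of the 21 strongest thresholded summits, 1 for each gene, 20, 18 and 21 had a summit within 100 bp among the strongest regions of replicates 1, 2 and 3, and 18 had one in all 3. The 3 without were those of MED25, MED8 and Polr2A. Counting only peaks present in all 3 replicates, 28.6% of the 63 genes had one, against 16.7% of all protein-coding genes (2327). Before that condition, 3436 protein-coding genes had a promoter peak. Of the further summits at MED17, MED6 and Taf2, the one at Taf2 was present in replicate 3 alone. Among the 42 genes without a promoter peak, 37 had no region within 500 bp among the strongest of any replicate. The other 5 were TfIIA-L, with 2 replicates, and Taf5, Taf12, TfIIFalpha and TfIIS, with 1 each. The matching share of all protein-coding genes without a peak was not set beside these counts. The order of the places was similar over replicates, with Spearman's rho of 0.779 between replicates 1 and 2 (20 genes), 0.782 between 1 and 3 (21 genes) and 0.678 between 2 and 3 (20 genes). The 21 genes were chosen by a thresholded list made from these same 3 replicates. Presence in the replicates and agreement between them are therefore in part a result of that choice. The correlations are descriptions across promoters of the same samples, not across independent samples.

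**Figure D2:**
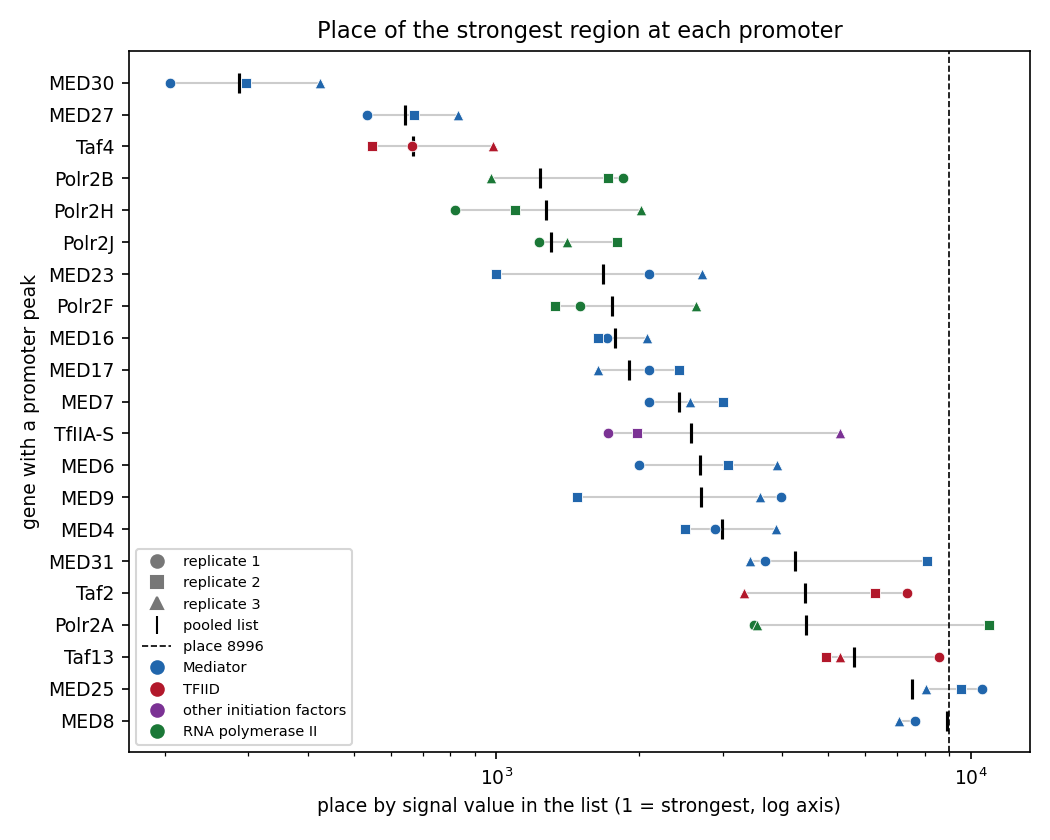
Place of the strongest region within 500 bp of a TSS (log axis, 1 is strongest) in each replicate list and in the pooled list, for the 21 genes with a promoter peak; symbols are replicates, colours are complexes, the black tick is the pooled place and the dashed line is place 8996. MED30, MED27 and Taf4 stayed within the first 1000 places in every replicate, while Polr2A in replicate 2 and MED25 in replicates 1 and 2 fell beyond the line.

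In the pooled list, 26 of the 63 had a region within 500 bp of a TSS, or 41.3%, close to the 40.1% of all protein-coding genes. Of those 26, 21 (80.8%) passed the threshold, against 61.4% of the 5596 protein-coding genes with a pooled region. The 5 that did not were MED19, TfIIFalpha, TfIIS, Taf8 and Taf9. The remaining 37 genes (58.7%, against 59.9% of all genes) had none in that list. In the whole replicate lists, 20 of the 42 genes without a promoter peak had a region in at least 1 replicate: 9 in 1, 8 in 2 and 3 in all 3. No share of all protein-coding genes without a peak was set beside these counts. With or without a peak, 47.6%, 61.9% and 42.9% of the 63 genes had a region in whole lists 1, 2 and 3. For all protein-coding genes these shares were 41.7%, 46.4% and 40.9%. All 5 RNA polymerase II genes and 12 of 13 Mediator genes with a pooled region passed, against 3 of 5 in TFIID and 1 of 3 among the other factors.

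Every one of the 21 strongest summits lay upstream of the TSS of the member nearest to it, at a median of -139 bp. At MED6 and Taf4, which have several TSSs, that TSS is an internal one and the summit lies within the gene. Among all protein-coding genes with a promoter peak, 81.3% of the strongest summits lay upstream (2794 of 3436), at a median of -125 bp. The arrangement of the genes was counted beside these positions, and whether it affects where summits lie was not tested. Of the 63 genes, 38 (60.3%) had a head-to-head partner, a protein-coding gene on the opposite strand starting at most 500 bp upstream, against 27.3% of all protein-coding genes (3815). A partner was present at 17 of 25 Mediator genes, 8 of 13 RNA polymerase II genes, 9 of 16 TFIID genes and 4 of 9 other factors. Of the 21 genes with a peak, 17 had a partner, against 1545 of the 3436 protein-coding genes with a promoter peak. In all 17 the strongest summit lay between a TSS of the member and a TSS of the partner, against 78.2% of all genes with both a partner and a peak (1208 of 1545). The partners are genes of many kinds, such as Rev1, a DNA repair polymerase, at MED30, Nup75, a nuclear pore protein, at MED9, and Cap-H2, a condensin subunit, at MED7. At MED4 the neighbour was a non-coding antisense RNA gene, and at Taf4, TfIIA-S and Polr2F no other TSS lay within 500 bp of the summit.

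**Figure D3:**
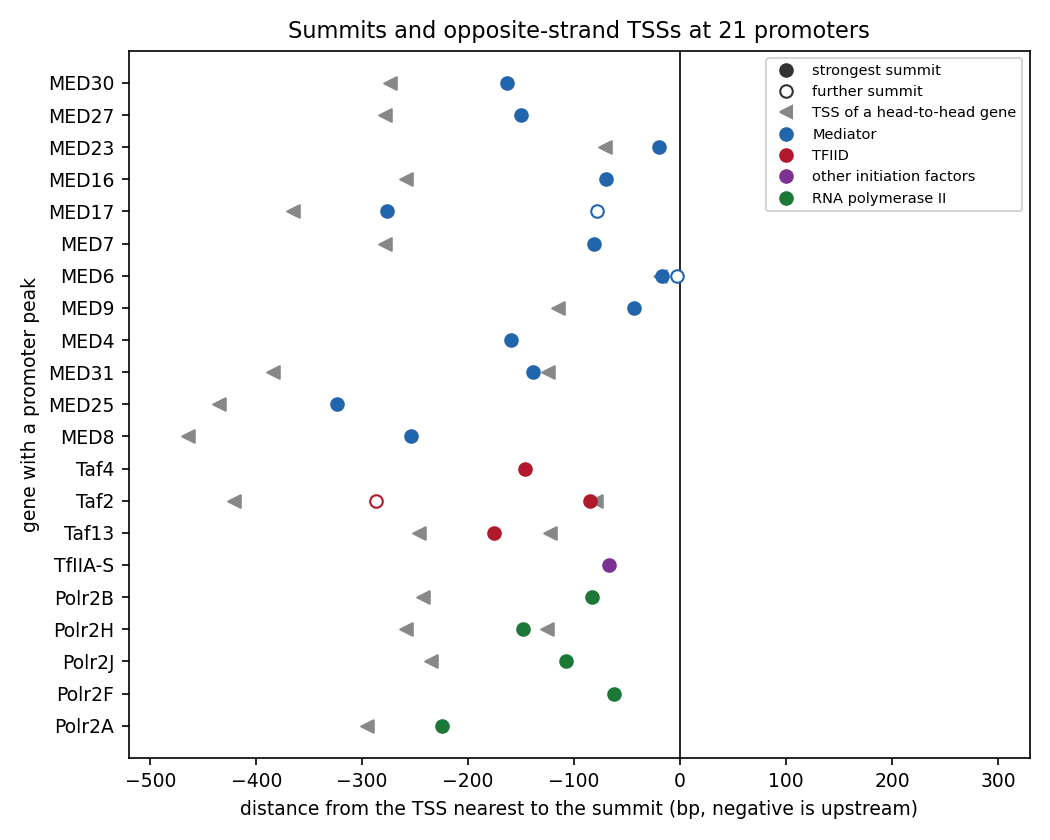
Distance of the thresholded summits from the nearest TSS of the member (bp, negative is upstream) for the 21 genes with a promoter peak, with filled circles for the strongest summit, open circles for a further one and grey triangles for TSSs of head-to-head protein-coding genes. All strongest summits lie left of 0, and at the 17 genes with a triangle the summit lies between the member's TSS and a triangle.

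Binding at the member and at its partner cannot be told apart by position. At 13 of the 21 genes the strongest summit lay nearer to a TSS of another gene than to the member's own, as at MED30 (Rev1), MED27 (elm), Polr2H (CG11247) and Taf2 (CalpB). The member's own TSS was the nearest at 8, which were MED7, MED16, MED23, Polr2B, Polr2F, Polr2J, Taf4 and TfIIA-S. That is 38.1%, against 76.1% of all protein-coding genes with a promoter peak (2614 of 3436). When a peak was given only to the gene of the nearest TSS, 10 of the 63 genes kept one (15.9%), below the 19.4% of all protein-coding genes. The higher share of the members was thus not seen under that assignment.

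The members' share was therefore also set against genes of the same arrangement. Among genes with a head-to-head partner, 17 of 38 members had a promoter peak (44.7%, interval 30.1 to 60.3%), against 40.5% of all protein-coding genes. Among genes without one, 4 of 25 members did (16.0%, interval 6.40 to 34.7%), against 18.6%. Within either arrangement the members as a whole were thus close to the background. Mediator had a peak at 11 of 17 genes with a partner (64.7%, interval 41.3 to 82.7%), an interval just above the 40.5% of all genes. Without a partner it had 1 of 8 (12.5%, interval 2.24 to 47.1%). RNA polymerase II had 4 of 8 with a partner and 1 of 5 without. TFIID had 2 of 9 with a partner and 1 of 7 without, and the other factors had 0 of 4 and 1 of 5. All 12 Mediator genes with a peak had a TSS of another gene within 500 bp of the summit. So did 85.7% of all members with a peak, against 51.1% of all protein-coding genes with a promoter peak (1757 of 3436).

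Members also differ from other genes in the number of annotated TSSs. Of the 57 members with 1 TSS, 19 had a promoter peak (33.3%, interval 22.5 to 46.3%), against 17.9% of the 10269 protein-coding genes with 1 TSS, a value below that interval. Split by arrangement, 16 of 35 members with 1 TSS and a partner had a peak (45.7%, interval 30.5 to 61.8%), against 34.0%. Without a partner it was 3 of 22 (13.6%, interval 4.75 to 33.3%), against 12.4%. Mediator genes with 1 TSS and a partner had a peak at 10 of 16 (62.5%, interval 38.6 to 81.5%). The interval of Mediator lay above the background in this stratum, while that of the members as a whole included it. The arrangement, the number of TSSs and the complex were not separated by a test.

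**Figure D4:**
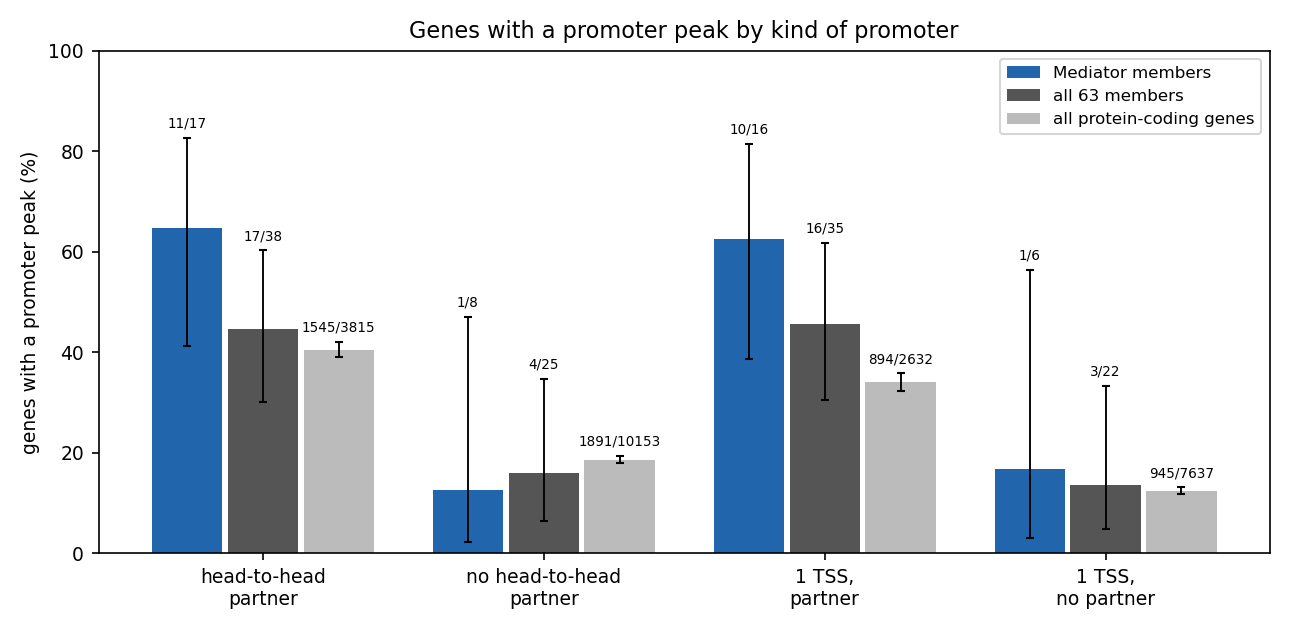
Percentage of genes with a promoter peak among Mediator members, all 63 members and all protein-coding genes, split by whether a head-to-head partner starts within 500 bp upstream, and the same for genes with 1 TSS; error bars are Wilson 95% intervals and the counts are genes with a peak over genes. Genes with a partner stand higher than genes without one in all 3 sets, and the intervals of the members as a whole include the shares of all protein-coding genes, which are nearest to theirs where no partner is present and farthest for 1 TSS with a partner (45.7% against 34.0%).

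The promoters of the machinery were also read for 6 short words, on both strands, in the window from 250 bp before to 50 bp after the TSS of the canonical transcript. The word GGTCACAC, known as motif 1 of fly core promoters and typical of housekeeping genes, was in 16 of the 63 windows (25.4%), against 7.52% of all protein-coding promoters (1051). In 14 of the 16 it started within 20 bp of the TSS, against 47.3% of all promoters with the word. The DRE core TATCGATA, a site of the factor Dref, was in 12 windows (19.0%), against 8.94%. TATAAA was in 49.2% of the members' windows and 45.3% of all. The CAGCTG word was in 12.7% against 17.9%, CACGTG in 3.17% against 4.25% and GAGAGAG in 1.59%, which is MED21 alone, against 6.19%.

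Motif 1 was found mostly at members without a peak. It was in 3 of the 21 windows with a promoter peak (14.3%), at MED8, MED23 and Taf4, and in 13 of the 42 without (31.0%). Those 13 were MED10, MED11, MED15, MED19, MED20, MED22, MED24, Taf1, Taf5, Polr2D, Polr2G, Polr2I and Polr2L. Put the other way, 3 of 16 members with the word had a peak (18.8%), against a background of 32.2% of all protein-coding genes with it, and 18 of 47 without the word did (38.3%), against 24.0%. Over all genes the word was somewhat more frequent with a peak (9.84%) than without one (6.77%), so the members leaned the opposite way. The counts are small, and the opposite lean was not tested. The sites below show the word in its setting: 30 bases around the word in the direction of the gene, from the Release 6 genome (dm6), with the word in capitals, first at Taf4 and then at 5 members without a peak. At Taf4 the word lies at the TSS of the canonical transcript, while the summit is nearest to an internal TSS. The summit is also within 500 bp of the canonical TSS, on its downstream side.
Taf4 (chr3L:16113212-16113241, plus strand): ttgtcgccaacGGTCACACtgcacaactcg
MED11 (chr3L:18745836-18745865, plus strand): tctcgtgttctGGTCACACtgttatctggt
MED22 (chrX:928121-928150, plus strand): ggaaaatacgtGGTCACACtgtacatataa
Taf1 (chr3R:6646893-6646922, plus strand): tgtccatcgacGGTCACACttacgcgtgtg
Polr2G (chr3R:15223146-15223175, minus strand): tttccgaatctGGTCACACttgcggcagca
Polr2I (chr3R:14309079-14309108, plus strand): cgccttgccacGGTCACACtttcgccaatt
In these 6 promoters the word runs in the direction of the gene and starts at 11 bp from the TSS in Taf4, -9 bp in MED11, -7 bp in MED22, 15 bp in Taf1, 16 bp in Polr2G and 1 bp in Polr2I. A match is a description of these letters and not a measured binding site.

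The DRE core was in 5 of the 21 windows with a peak, all at Mediator genes (MED7, MED8, MED9, MED17 and MED25), and in 7 of the 42 without (MED18, MED26, MED28, Taf3, Tbp, Polr2D and Polr2L). A peak lay at 5 of 12 members with the word and 16 of 51 without it, beside 35.0% of all protein-coding genes with it and 23.6% of those without. The sites at 3 of the Mediator genes with a peak read as follows, in the same layout.
MED17 (chr3R:18189034-18189063, plus strand): gagcactcattTATCGATAgccggccgcag
MED25 (chr3R:20008925-20008954, plus strand): cataagttgacTATCGATAgcagcagagcg
MED7 (chr3R:10761203-10761232, minus strand): cacctttaagtTATCGATAgctaggcacgg
None of the 21 strongest summits had the DRE core within 50 bp. Only 1.22% of all thresholded summits had it, so that 0 of 21 is near the background. Within that distance TATAAA lay at 5 of the 21 (23.8%, against 19.3% of all thresholded summits) and motif 1 at 1 (4.76%, against 0.856%). The remaining words lay at 0, against 3.70% for CAGCTG, 2.29% for GAGAGAG and 0.778% for CACGTG, which are low shares too.

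Genes of the same machinery whose symbols fall outside the selection were counted in the same way, and the interval of each list named here includes the 24.6% of all protein-coding genes. TFIIH, which opens the DNA and phosphorylates the polymerase, had promoter peaks at 4 of 10 genes (40.0%, interval 16.8 to 68.7%). Ssl1 had one of the strongest peaks of the whole list, at place 20 (signal value 3080; replicate places 14, 24 and 33), with the TSS of its opposite-strand neighbour Chro nearer to the summit than its own. Tfb5 was at place 4345, the kinase gene Cdk7 at place 4582 and its cyclin CycH at place 6044. The summits at Tfb5 and Cdk7 lay nearer to TSSs of SelT and snf than to those of the TFIIH genes. In the Mediator kinase module, skd had a peak at place 8297 with its summit at -404 bp, nearer to a TSS of Pdss2, and kto, CycC and Cdk8 had none (1 of 4, interval 4.56 to 69.9%). Among genes of pausing and elongation 3 of 13 had one (23.1%, interval 8.18 to 50.3%): Nelf-E, of the negative elongation factor, at place 63, Spt6 at place 6188 and Nelf-A at place 8403. The region at Nelf-E lay nearest to the TSS of that gene, but it is also counted at RpL14 among the ribosomal genes below. Trf2, a relative of Tbp, was the single one of 6 TBP relatives and testis Tafs (16.7%, interval 3.01 to 56.4%), at place 4952.

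RNA polymerases I and III gave a reference for polymerase genes outside the RNA polymerase II set. Of their 17 genes, 3 had a promoter peak (17.6%, interval 6.19 to 41.0%): Polr3E at place 1572, Polr1D at place 2038, nearer to a TSS of brat, and Polr3D at place 7381. RNA polymerase II, with 5 of 13, had the higher share, but the intervals overlap broadly. Those 13 genes include the subunits shared with RNA polymerases I and III, Polr2F and Polr2H among them, so the sets do not fully separate the polymerases. Genes of the cytoplasmic ribosome, a housekeeping set with strong promoters, had a peak at 61 of 93 (65.6%, interval 55.5 to 74.5%), above the interval of the 63 members. The gene ix, a further Mediator subunit not matched by symbol, had no thresholded summit within 500 bp and a region at place 14898 of the pooled list.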

How the data were processed

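Fru-GFP ChIP-seq of whole larvae was analysed from the region lists on dm6. Each region has a summit and a signal value, which was deposited by the authors as a score with no fixed range, derived from ChIP and control alignments according to notes supplied beside the lists. How reads were aligned, which caller made the regions and which irreproducible discovery rate set the threshold is not given in the sources. Replicate lists, of 30000 regions each, were put on an equal footing by their strongest 8996. The same lists on dm3 were not used.

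Genes and TSSs came from Ensembl BDGP6.54, release 115, without pseudogenes and transposable elements and for the chromosome arms, chromosome 4, X and Y; sequences came from the NCBI RefSeq Release 6 genome. Summits were taken as the start plus the offset, 1-based. The assignment to TSSs was checked on 200 planted summits. Intervals are 95% Wilson intervals and cover the sampling of genes only; neighbouring genes share peaks, so they are not independent. No test between groups was run. All members are named; those with a thresholded summit, and the 5 without one whose pooled region had the best place, get values by rule. Values of MED15, Tbp, TfIIA-L, TfIIEalpha, TfIIEbeta, Taf10 and Taf10b are given besides and were chosen after they were seen. The counts of pooled-list and replicate regions use the strongest region within 500 bp of a TSS.

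The members, complexes, lists and words were chosen with earlier results of these data known. Alternatives were TSS distances of 250 and 1000 bp, the strongest 4498 regions, the pooled list, peaks present in all 3 replicates or in both of 2, whole replicate lists, the nearest TSS and region overlap. Settings for partners and word windows were added after the data were seen. Python 3.11.15, numpy 2.4.6, scipy 1.17.1 and matplotlib 3.10.9 were used.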

Additional observations from a re-analysis of the deposited data

How the results depend on the processing

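Settings of 2 kinds moved a count by more than 1.5 times. When a peak was given only to the gene of the nearest TSS, a promoter peak was counted at 10 members in all, 5 of 25 for Mediator, 1 for TFIID and 3 of 13 for RNA polymerase II (23.1%), and Mediator no longer led. When all regions of the pooled list were used, 5 TFIID genes and 3 other initiation factors had one; the threshold is then not applied. All other settings stayed within 1.5 times of the reported counts. Leaving out each replicate in turn gave 18 to 20 members, 10 to 11 Mediator genes, 3 TFIID genes, 1 other factor and 4 to 5 RNA polymerase II genes. Without replicates 1, 2 and 3 in turn, 28.6%, 31.7% and 28.6% of the members had a peak. The shares of all protein-coding genes were then 18.6%, 18.3% and 18.8%. At a TSS distance of 250 bp 19 members had a peak (30.2%, against 20.1% of all protein-coding genes), and at 1000 bp 22 did (34.9%, against 28.5%). With whole replicate lists the mean count per replicate was 32.0 in place of 21.7. The head-to-head count was 44 with partners up to 1000 bp away and 39 with partners of any annotated kind. The matching shares of all protein-coding genes were not set beside these 2 counts. No paired analysis was possible because the replicates form 1 group. Depth is unknown, so a missing region is one that was not called, and 9 to 25 genes per complex give wide intervals. No control sample was analysed, and the share of regions that do not depend on the tag was not tested.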
